A study of Mus musculus with 20 samples.

Results

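Macrophage scavenger receptors and surface markers were followed in the skin of mice injected with IL-23 and treated with antagonists of Toll-like receptors (TLRs). The 10 genes were Marco, Msr1, Cd36, Cd68, Olr1, Stab1, Cd163, Mrc1, Lyve1 and Csf1r. They were covered by 19 of the 34958 probe-sets that carry a single gene symbol on the mouse4302 Affymetrix array, which stand for 18194 genes. Marco was selected on its levels in saline against naïve mice and in both antagonist groups against saline mice, since it was far higher after IL-23 and stayed there under both drugs. Its values are therefore a description without a test. The other 9 genes were chosen as its functional relatives, with earlier results of these data known, and counts below are over these 9.

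Each of 4 groups held 5 female C57BL/6 mice, bought at 6 weeks of age and housed for 1 week before the study, with 1 array of full-thickness skin per mouse, so that replicates were separate animals. Naïve mice had no injection described. The other 3 groups received IL-23 intradermally in the back, 3 µg daily on days 1 to 4, and then subcutaneous saline (PBS), IMO-3100 or IMO-8400 on days 4, 5 and 6 at a site away from the IL-23 injection. IMO-3100 is an oligonucleotide antagonist of TLR7 and TLR9, and IMO-8400 is one of TLR7, TLR8 and TLR9, both given at 15 mg/kg. Skin from the injection site was taken on day 7. Since all injected groups were compared with mice that had no injection described, IL-23 cannot be told apart from the injection and vehicle. The values are GCRMA expression on the log2 scale, and the number of arrays limits their precision. A gene is described at its probe-set with the highest mean over the 20 arrays, and mice are numbered 1 to 5 within each group only as names. A probe-set was called higher or lower where limma gave an FDR under 0.05 and a fold-change (FCH) over 2.

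Scavenger receptors are membrane proteins that bind modified lipoproteins, bacterial surfaces and debris of dying cells and carry them into the cell. Tissue macrophages use them to clear such material, and their sets of receptors differ between resident and inflammatory states. Skin holds resident dermal macrophages beside monocyte-derived cells that enter during inflammation, and Cd36 and Lyve1 are also expressed outside the macrophage lineage, in adipocytes and endothelium. In whole skin, fewer cells of a type and less RNA per cell cannot be told apart.

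The 250 bases before the transcription start are shown for the 2 members that lay at or near the lowest array values in naïve skin (Marco and Olr1) and for Cd163, which was lower after IL-23. They are read 5′ to 3′ on the strand of the gene from RefSeq promoters of build GRCm38.p6. Windows of 7 of the 10 members were searched, and those of Msr1, Lyve1 and Csf1r were not. Capitals mark a match to GAGGAAG, a core of sites of the myeloid factor PU.1, or to TGANTCA, the site of AP-1.
Marco, chr1:120505025-120505274, minus strand: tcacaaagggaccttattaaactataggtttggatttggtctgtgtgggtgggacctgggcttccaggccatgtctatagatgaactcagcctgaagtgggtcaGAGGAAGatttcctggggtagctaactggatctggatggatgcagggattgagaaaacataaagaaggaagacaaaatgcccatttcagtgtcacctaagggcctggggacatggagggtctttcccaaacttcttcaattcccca
Olr1, chr6:129507166-129507415, minus strand: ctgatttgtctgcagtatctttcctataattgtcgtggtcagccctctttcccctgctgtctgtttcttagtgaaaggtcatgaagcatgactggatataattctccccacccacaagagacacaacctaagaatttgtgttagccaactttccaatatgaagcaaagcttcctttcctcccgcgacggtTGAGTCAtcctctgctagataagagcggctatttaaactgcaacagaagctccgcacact
Cd163, chr6:124304401-124304650, plus strand: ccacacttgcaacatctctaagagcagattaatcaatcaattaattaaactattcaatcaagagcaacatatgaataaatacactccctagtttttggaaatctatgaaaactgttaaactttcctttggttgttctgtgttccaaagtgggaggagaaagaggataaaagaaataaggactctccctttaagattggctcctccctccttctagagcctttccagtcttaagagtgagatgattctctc
Both strands were searched, and the letters were chosen with the sequences at hand. GAGGAAG stood 146 to 140 bases before the start of Marco, and 10.6% of 32851 promoters in the table held it on either strand. TGANTCA, which reads the same on both strands, stood 60 to 54 bases before the start used for Olr1 and was held by 6.75% of promoters. The windows of Olr1 and Cd163 overlap the RefSeq spans of these genes (chr6:129479150-129507350 and chr6:124304636-124330529). The starts used for them are therefore not the outermost ones. Beyond the printed genes, Mrc1 had 2 matches to GAGGAAG on the minus strand and Cd68 had 2 matches to TGANTCA. None of the 7 windows held the NF-kB motif, which 7.25% of promoters did. These matches describe letters and not binding.

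Marco encodes a class A scavenger receptor with a collagenous stalk that binds bacteria and particles. In naïve skin its levels were 3.38, 3.51, 3.59, 2.31 and 2.88 on the log2 scale, of which the last 2 lay close to the lowest value of the arrays (2.02). After IL-23 and saline they were 13.44, 11.82, 11.71, 13.58 and 12.76. All 5 saline mice thus stood far above all 5 naïve mice, with means of 12.66 ± 0.88 and 3.14 ± 0.54 (SD, n = 5). The difference of the means was 9.52 on the log2 scale, a ratio of 737-fold whose size depends in part on the low naïve values. At the other Marco probe-set all 5 naïve values were between 2.02 and 2.40, near background, and saline values were between 8.40 and 10.96, which made the level at least 103-fold higher. Here and below, a group is near background where its 5 values lie below 3, and the bound raises its values to 3.

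Neither antagonist group moved away from the saline level of Marco. The 5 IMO-3100 mice had 13.15, 12.81, 12.60, 12.77 and 12.35, and the 5 IMO-8400 mice had 13.41, 12.75, 12.32, 11.87 and 11.75. Both ranges lay inside that of the saline mice. The mean differed from saline by 0.08 with IMO-3100 and by -0.24 with IMO-8400 (log2), which amounts to -0.817% and 2.52% of the distance back to the naïve mean. At the other probe-set the differences were 0.19 and -0.40.

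**Figure D1:**
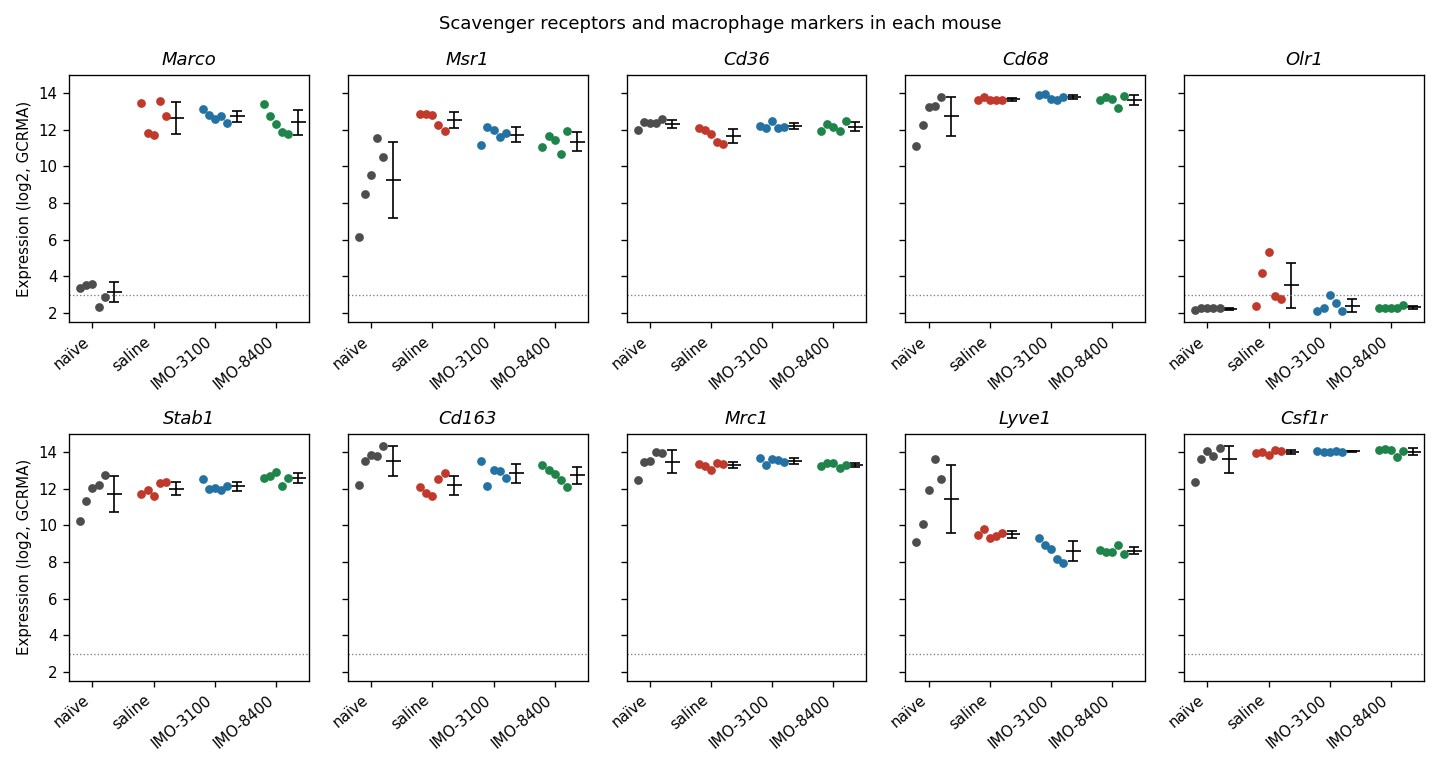
Expression (log2, GCRMA) of the 10 genes at their probe-set with the highest mean, for naïve, saline, IMO-3100 and IMO-8400 mice. Points are single mice in the order 1 to 5, bars are the mean and SD of 5 mice, and the dotted line marks 3. Marco stands near 3 in naïve mice and above 11 in all 15 injected mice, while Msr1 and Lyve1 spread widely among naïve mice.

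The other 9 genes did not move as a block. Against naïve skin, 2 of 9 were higher in saline mice (Msr1 and Olr1) and 2 were lower (Cd163 and Lyve1), where 7.58% and 8.92% of the 30960 tested probe-sets of the array were called higher and lower. Their median log2 difference was 0.29 against -0.04 over all tested probe-sets. All 19 probe-sets of the 10 genes were tested. The filter value of 2 lies below the lowest array value (2.02), so that only the limit on the SD could remove probe-sets.

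Msr1, which encodes the class A receptor of modified lipoproteins SR-A, rose. Naïve mice had 6.14, 8.48, 9.52, 11.53 and 10.53 on the log2 scale, and saline mice had 12.87, 12.84, 12.82, 12.27 and 11.92. Every saline mouse was above every naïve mouse, although the naïve mice spread over more than 5 log2 units. The log2 fold-change was 3.31 (SE 0.65, 95% interval 1.93 to 4.68, adjusted p = 0.000585 by limma), and the other 3 probe-sets were called higher too, with 4.35, 3.94 and 3.67. Without naïve mice 1 and 2, the lowest ones, the change was 2.02 (adjusted p = 0.000653).

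Under the antagonists the probe-sets of Msr1 gave different calls. At the probe-set described, IMO-3100 mice had 11.15, 12.16, 11.97, 11.60 and 11.81 and IMO-8400 mice had 11.07, 11.66, 11.44, 10.66 and 11.96, below most saline mice but overlapping with them. The log2 differences from saline were -0.81 (95% interval -2.18 to 0.57, adjusted p = 0.393 by limma) and -1.19 (-2.56 to 0.19, adjusted p = 0.185). The latter was called when the 2 groups were fitted alone (adjusted p = 0.0105) and with array weights (adjusted p = 0.0267). At the dimmest of the 4 probe-sets both were called lower, by -2.12 with IMO-3100 (adjusted p = 0.0280) and by -2.72 with IMO-8400 (adjusted p = 0.00684). There the 5 IMO-3100 mice (3.97 to 6.09) stood below all saline mice (6.41 to 8.18), while IMO-8400 mice (3.37 to 6.73) overlapped with them. At the remaining 2 probe-sets the differences were -1.35 and -1.47 with IMO-3100 and -1.71 and -1.88 with IMO-8400, with adjusted p between 0.0612 and 0.218.

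Olr1 encodes LOX-1, a lectin-like receptor of oxidized LDL. It was near background in naïve mice (2.14, 2.26, 2.26, 2.26 and 2.26), and saline mice had 2.39, 4.18, 5.34, 2.90 and 2.79, so that only saline mice 2 and 3 exceeded 3. The rise was called (log2 fold-change 1.28, SE 0.38, adjusted p = 0.0109 by limma) and amounts to at least 1.63-fold. IMO-3100 mice had 2.12, 2.26, 3.00, 2.53 and 2.12, and all IMO-8400 mice lay near background, between 2.26 and 2.44. Olr1 was therefore the 1 gene of 9 called lower with IMO-3100 (-1.11, adjusted p = 0.0376) and with IMO-8400 (-1.21, adjusted p = 0.0237). Against the near-background IMO-8400 mice the level in saline mice was at least 1.63-fold higher, a bound that lies under the FCH threshold, as does that of the rise after IL-23. None of the 9 was called higher by either drug, with 1 of 9 higher at an unadjusted p under 0.05 in each case, Cd36. Over all tested probe-sets 2.69% were higher and 3.73% lower with IMO-3100, and 4.46% and 3.59% with IMO-8400. The calls for Olr1 rest on few mice. Without saline mouse 3 the log2 values were 0.83, -0.66 and -0.76 and no longer passed, without saline mouse 2 neither drug's call passed (adjusted p = 0.0953 and 0.0653), and leaving out IMO-3100 mouse 1, 2, 4 or 5 also ended the IMO-3100 call.

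**Figure D2:**
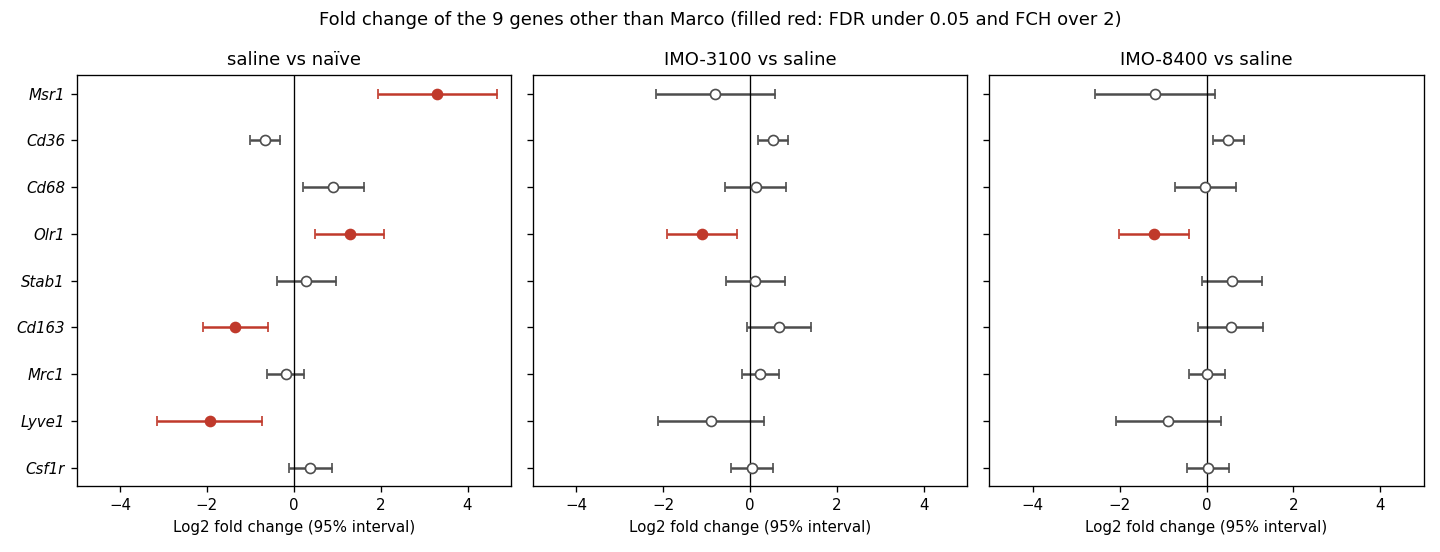
Log2 fold-change of the 9 genes other than Marco in saline against naïve mice and in each antagonist group against saline mice, with 95% intervals from limma (n = 5 mice per group). Filled red points passed FDR under 0.05 and FCH over 2. Msr1 and Olr1 were higher and Cd163 and Lyve1 lower after IL-23, and Olr1 alone was called under the antagonists.

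Cd36, a class B receptor of oxidized lipids and long-chain fatty acids, changed by less than the FCH threshold. Naïve mice had 11.96, 12.42, 12.37, 12.36 and 12.57 and saline mice 12.11, 11.97, 11.75, 11.34 and 11.20, a log2 difference of -0.66 (adjusted p = 0.00359 by limma, FCH 1.58). IMO-3100 mice lay between 12.07 and 12.45 and IMO-8400 mice between 11.95 and 12.49, with differences from saline of 0.53 (adjusted p = 0.0257) and 0.50 (adjusted p = 0.0313). At the dimmest of its 3 probe-sets neither antagonist group overlapped with saline mice (9.54 to 9.85), with IMO-3100 mice at 10.26 to 11.00 and IMO-8400 mice at 10.16 to 10.31. The third probe-set had 0.42 and 0.38, with adjusted p of 0.0727 and 0.101. Genes of adipocytes, which also express Cd36, moved in the same direction. Of 8 adipocyte genes 7 were lower in saline than in naïve mice, and 5 were higher with each antagonist than with saline. Over all tested probe-sets 8.92% were lower after IL-23, and 2.69% and 4.46% were higher with IMO-3100 and IMO-8400. Their mean level per mouse was 11.2 to 11.7 in naïve, 8.24 to 9.96 in saline, 10.1 to 10.8 in IMO-3100 and 10.4 to 11.0 in IMO-8400 mice. Their part in the result for Cd36 was not tested.

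Cd163, the hemoglobin-haptoglobin receptor of resident-type macrophages, fell. Its levels were 12.18, 13.52, 13.82, 13.76 and 14.32 in naïve mice and 12.11, 11.75, 11.60, 12.53 and 12.86 in saline mice. Naïve mouse 1 lay among the saline mice and the other 4 stood above them. The log2 fold-change was -1.35 (SE 0.35, 95% interval -2.09 to -0.60, adjusted p = 0.00504 by limma). With the antagonists the levels were 13.53, 12.13, 13.00, 12.96 and 12.57 (IMO-3100) and 13.28, 12.99, 12.78, 12.46 and 12.11 (IMO-8400), which overlapped with saline mice. The differences of 0.67 (95% interval -0.08 to 1.41, adjusted p = 0.174) and 0.55 (-0.19 to 1.30, adjusted p = 0.257) were not called.

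Lyve1, a hyaluronan receptor of lymphatic endothelium and of perivascular macrophages, had the widest spread among naïve mice after Msr1. Naïve mice had 9.07, 10.07, 11.91, 13.64 and 12.52, and saline mice had 9.45, 9.77, 9.32, 9.41 and 9.56. Naïve mouse 1 lay below all saline mice and the other 4 above them. The log2 fold-change was -1.94 (SE 0.58, 95% interval -3.15 to -0.73, adjusted p = 0.0110 by limma) and -3.19 without naïve mice 1 and 2 (adjusted p = 2.80e-06). It was not called when the 2 groups were fitted alone (adjusted p = 0.0742). The other probe-set gave -1.78 (adjusted p = 0.0179).

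Lyve1 did not return toward the naïve level under the antagonists. IMO-3100 mice had 9.29, 8.92, 8.69, 8.15 and 7.95 and IMO-8400 mice had 8.65, 8.55, 8.52, 8.95 and 8.42, each of them below the lowest saline mouse. The differences from saline were -0.90 (95% interval -2.11 to 0.31, adjusted p = 0.268 by limma) and -0.88 (-2.10 to 0.33, adjusted p = 0.268), both short of the threshold. At the other probe-set the IMO-8400 mice again lay below all saline mice, whereas IMO-3100 mouse 1 (8.96) overlapped with saline mouse 1 (8.95). The spread that limma used was shared with the naïve mice, and with array weights the IMO-3100 difference was called (-1.02, adjusted p = 0.0474). Most other genes of lymphatic endothelium were not called after IL-23. Prox1, its defining transcription factor, differed by 0.14 between saline and naïve mice (adjusted p = 0.721), and Flt4, its VEGF receptor, by 0.36 (adjusted p = 0.283). Reln and Mmrn1 differed by -0.84 (adjusted p = 0.0681) and -0.76 (adjusted p = 0.0630). Pdpn, which encodes podoplanin, was 0.68 higher (adjusted p = 0.000488) and was lower with IMO-3100 (-0.60, adjusted p = 0.00327) and IMO-8400 (-0.69, adjusted p = 0.00111) than with saline, each below the FCH threshold. Of the 6 lymphatic genes measured, Sema3d was lower in saline mice (-2.37, adjusted p = 6.83e-06), and it was higher with IMO-3100 (2.62, adjusted p = 1.72e-05) and with IMO-8400 (2.05, adjusted p = 0.000131) than with saline. Reln was also higher with IMO-8400 (1.23, adjusted p = 0.0177). The mean level of the 6 genes per mouse was 8.61 to 10.3 in naïve, 9.15 to 9.65 in saline, 9.99 to 10.4 in IMO-3100 and 9.94 to 10.3 in IMO-8400 mice. Without naïve mice 1 and 2, 3 of the 6 were lower in saline mice. Over all tested probe-sets in the fit of all mice, 7.58% were higher and 8.92% lower after IL-23. With IMO-3100 and IMO-8400, 2.69% and 4.46% were higher than with saline. No such share is given for the fit without naïve mice 1 and 2.

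Cd68, a lysosomal glycoprotein found in macrophages at large, was at 11.14, 12.24, 13.22, 13.32 and 13.81 in naïve mice and between 13.62 and 13.79 in saline mice. Its log2 difference of 0.91 had an adjusted p of 0.0317 by limma but missed the FCH threshold (1.88), and it was called without naïve mouse 3, 4 or 5. The difference was 0.21 without naïve mice 1 and 2 (adjusted p = 0.261). Csf1r, the receptor through which CSF1 and IL-34 sustain macrophages, was high throughout, at 12.34, 13.63, 14.05, 13.76 and 14.19 in naïve mice and 13.84 to 14.11 in saline mice (difference 0.38, 95% interval -0.10 to 0.87, adjusted p = 0.187). At its other probe-sets the gap between the means was wider, with 12.65 and 10.81 in naïve mice against 13.30 and 11.62 in saline mice. Mrc1, the mannose receptor CD206, was between 12.46 and 13.99 in naïve and between 13.03 and 13.39 in saline mice, a difference of -0.19 (95% interval -0.61 to 0.23, adjusted p = 0.454). Stab1, a clearance receptor of macrophages and sinusoidal endothelium, differed by 0.29 (95% interval -0.40 to 0.98, adjusted p = 0.487). The sign of that difference turned without naïve mouse 1 (-0.08), without naïve mice 1 and 2 (-0.33) and with array weights (-0.01). That of Csf1r, at its probe-set with the highest mean, turned without naïve mice 1 and 2 (-0.02). None of these 4 genes was called by limma in either antagonist comparison with saline, and none had an unadjusted p under 0.05 there. Their differences lay between -0.03 and 0.58, the highest for Stab1 with IMO-8400 (95% interval -0.10 to 1.27, adjusted p = 0.195).

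A direct comparison of the antagonists asked whether the drug that also targets TLR8 left these genes at another level. None of the 9 was called between IMO-8400 and IMO-3100 by limma, none had an unadjusted p under 0.05, and none was called in any fit that left out 1 mouse. Over the array 0.333% of probe-sets were higher and 0.245% lower with IMO-8400. The 9 differences ran from -0.38 for Msr1 to 0.46 for Stab1. Their 95% intervals reached -1.75 (Msr1) at the low end and 1.23 (Lyve1) at the high end, and that of Stab1 was -0.23 to 1.15, so that differences of over 2-fold remain possible for these 3 genes, whereas for Cd36 the interval was -0.37 to 0.32 and for Csf1r -0.50 to 0.48. Marco levels of the antagonist groups overlapped, with means of 12.42 ± 0.68 and 12.74 ± 0.29 (SD, n = 5).

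Both antagonist groups still differed from naïve skin. With IMO-3100, Msr1 (2.50, adjusted p = 0.00888 by limma) and Cd68 (1.04, adjusted p = 0.0261) were higher and Lyve1 was lower (-2.84, adjusted p = 0.00167), where 4.90% and 4.55% of tested probe-sets were higher and lower. With IMO-8400, Msr1 was higher (2.12, adjusted p = 0.0320) and Lyve1 lower (-2.82, adjusted p = 0.00298), against 3.60% and 2.43% of tested probe-sets. The Cd68 call was lost without naïve mouse 1 or 2 or IMO-3100 mouse 2 (log2 values 0.63, 0.91 and 1.00). Without naïve mouse 2 or IMO-8400 mouse 1, 2, 3 or 5, the adjusted p of Msr1 with IMO-8400 lay between 0.0524 and 0.0768. Without naïve mouse 1, Cd163 was called lower with IMO-3100 (-1.01, adjusted p = 0.0182) and IMO-8400 (-1.13, adjusted p = 0.0157), and without naïve mouse 5, Cd68 (1.15, adjusted p = 0.0153) and Stab1 (1.14, adjusted p = 0.0152) were called higher with IMO-8400. Marco stood 9.60 and 9.28 log2 units above naïve mice. These comparisons share the naïve mice with the first one, and those between antagonists and saline share the saline mice.

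The naïve mice themselves were not alike in these genes. Naïve mouse 1 was the lowest of the 5 in each of the 8 genes other than Marco and Olr1, the members near the lowest array values. The mean of 13 genes of the hair shaft and growing follicle was 12.8, 11.3, 9.21, 4.58 and 3.43 in naïve mice 1 to 5, against 2.79 to 3.12 in saline, 2.78 to 2.95 in IMO-3100 and 2.87 to 6.27 in IMO-8400 mice. The mean of 25 monocyte and macrophage markers ran the other way, with 9.98 in naïve mouse 1 and 12.5 in naïve mouse 5, against 12.1 to 12.5 in saline mice. The 3′ to 5′ differences of the beta-actin control probe-sets lay between 0.715 and 0.947 in all 20 mice, and those of Gapdh between 0.540 and 0.740. Keratinocyte genes had list means between 13.2 and 14.1 and fibroblast genes between 13.4 and 14.2 in all mice, so that markers of skin were present. The part of the hair follicle in the results against naïve mice was not tested. Without naïve mice 1 and 2 the calls of the 9 genes between saline and naïve mice were again 2 higher and 2 lower, in the same 4 genes. With IMO-3100 the call of Cd68 was then lost (0.33, adjusted p = 0.109) and Cd163 was called lower (-1.12, adjusted p = 0.0226), and with IMO-8400 the call of Msr1 was lost (0.83, adjusted p = 0.162) and Cd163 was called lower (-1.24, adjusted p = 0.0203).

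**Figure D3:**
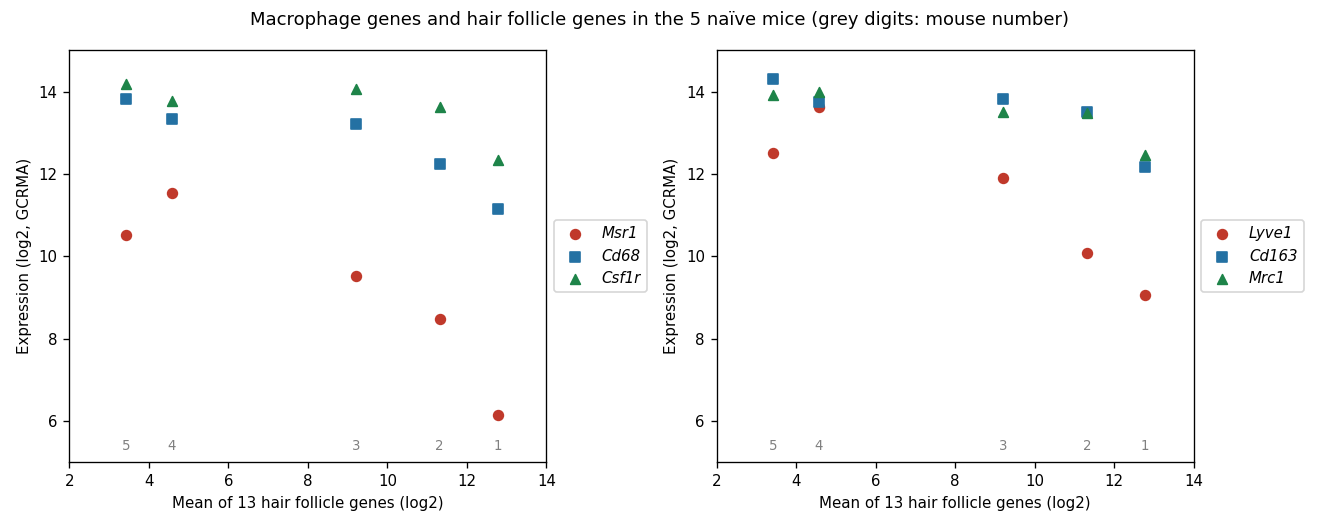
Expression (log2, GCRMA) of Msr1, Cd68 and Csf1r (left) and of Lyve1, Cd163 and Mrc1 (right) against the mean of 13 hair follicle genes (log2) in the 5 naïve mice, numbered in grey. Mouse 1, with a hair follicle mean of 12.8, has the lowest value of each of the 6 genes.

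Other scavenger receptors were called in both directions after IL-23. Of 16 measured, 4 were higher in saline than in naïve mice (Cd5l, Cd14, Cxcl16 and Scarf1) and 4 lower (Cd209b, Scara5, Scara3 and Colec12), with a median log2 difference of -0.01. Cd5l, a secreted protein of macrophages with scavenger receptor domains, was high in all injected groups. It was at 2.26, 2.87, 6.73, 8.82 and 9.00 in naïve mice and at 11.15 ± 0.43 (SD, n = 5) in saline mice, a log2 fold-change of 5.21 (adjusted p = 0.000358 by limma), and the antagonist differences from saline were 0.77 and 0.73 (adjusted p = 0.610 and 0.621). Scara5, a ferritin receptor of stromal cells, took another course. It fell by 1.70 on the log2 scale after IL-23 (adjusted p = 0.000188) and was higher than with saline by 1.71 with IMO-3100 (adjusted p = 0.000637) and by 1.61 with IMO-8400 (adjusted p = 0.000844). Scarf1, a receptor of acetylated LDL, rose by 1.71 (adjusted p = 0.000775) and was lower with IMO-3100 (-1.15, adjusted p = 0.0213) and IMO-8400 (-1.01, adjusted p = 0.0384). In all, 1 of 16 was higher and 1 lower with IMO-3100, and 2 were higher and 1 lower with IMO-8400. Over all tested probe-sets, 7.58% were higher and 8.92% lower after IL-23. The shares higher and lower were 2.69% and 3.73% with IMO-3100, and 4.46% and 3.59% with IMO-8400.

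Genes that drive and sustain macrophages were higher after IL-23 in 7 of 13 cases and lower in none (1 lower at an unadjusted p under 0.05, limma), with a median of 1.04. They included Spi1 (2.44, adjusted p = 0.000522), which encodes PU.1, Irf8 (2.03, adjusted p = 0.000758), a transcription factor of monocytes, Nr1h3 (2.82, adjusted p = 7.42e-06), which encodes the oxysterol receptor LXRα, and Tfec (2.43, adjusted p = 0.00790). The ligands of Csf1r were not called between saline and naïve mice, with 0.07 for Csf1 (adjusted p = 0.896 by limma) and -0.21 for Il34 (adjusted p = 0.522). Il34 had an unadjusted p under 0.05 in IMO-8400 mice against saline, IMO-3100 and naïve mice, and was called in none of these comparisons. No gene of this list was called with either antagonist against saline, where 2 were higher and 2 lower with IMO-3100 and 3 higher and 1 lower with IMO-8400 at an unadjusted p under 0.05. Without naïve mice 1 and 2, 3 of the 13 were higher and 1 lower in saline mice. Over all tested probe-sets in the fit of all mice, 7.58% were higher and 8.92% lower after IL-23. The shares with the antagonists are given above with the other scavenger receptors. No such share is given for the fit without naïve mice 1 and 2.

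Among 25 monocyte and macrophage markers, 8 were higher and 1 lower after IL-23, with a median of 0.63. Adgre1, a surface receptor of mature macrophages, rose by 1.49 (adjusted p = 0.00161 by limma), Fcgr1, the high-affinity IgG receptor, by 2.02 (adjusted p = 0.00444) and Itgam, which encodes CD11b, by 2.59 (adjusted p = 0.00660), while Clec10a, a galactose lectin of resident cells, fell by 1.00 (adjusted p = 0.0280). With IMO-3100 none was called against saline (1 higher and 0 lower at an unadjusted p under 0.05). With IMO-8400 only Itgam was called, at -1.93 (adjusted p = 0.0499 by limma). There 1 marker was higher and 4 were lower at an unadjusted p under 0.05, Itgam among them. Each marker was read only at its probe-set with the highest mean, where Ccr2, a chemokine receptor, was not called in any of these comparisons. The study itself lists Ccr2 as higher after IL-23 and lower with both antagonists. Other probe-sets of the markers can therefore give other calls. Leaving out naïve mice 1 and 2 reduced the counts between saline and naïve mice to 3 higher and raised those lower to 3. The list means of the antagonist groups were 12.3 to 12.5 (IMO-3100) and 11.7 to 12.2 (IMO-8400). Over all tested probe-sets in the fit of all mice, 7.58% were higher and 8.92% lower after IL-23. The shares higher and lower were 2.69% and 3.73% with IMO-3100, and 4.46% and 3.59% with IMO-8400. No such share is given for the fit without naïve mice 1 and 2.

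**Figure D4:**
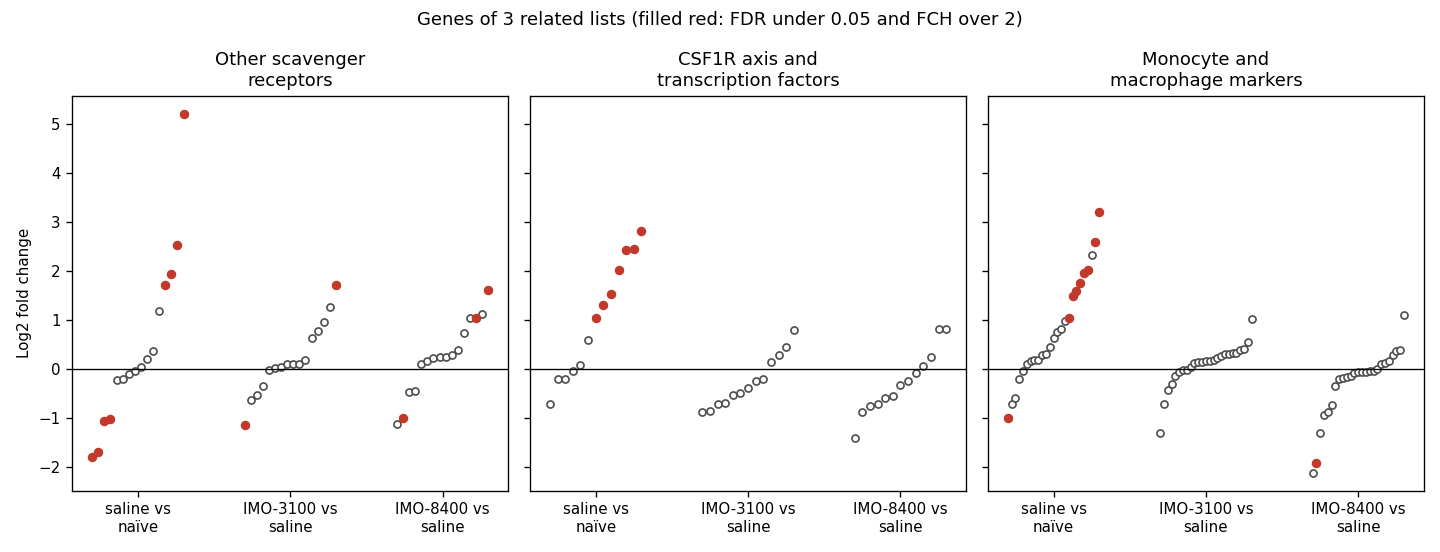
Log2 fold-change of each measured gene of 3 related lists (16 other scavenger receptors, 13 genes of the CSF1 receptor axis and macrophage transcription factors, 25 monocyte and macrophage markers), sorted by size within each comparison. Filled red points passed FDR under 0.05 and FCH over 2, and most of them lie in the comparison of saline with naïve mice.

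The genes whose level followed that of Marco most closely over the 20 arrays were Saa3 (Pearson r = 0.978), an acute-phase apolipoprotein, Jchain (0.975), the joining chain of polymeric immunoglobulins, Ly75 (0.967), the endocytic receptor DEC-205, Fhad1 (0.966) and Stfa3 (0.964), a stefin protease inhibitor. The 20 arrays fall into 4 groups, so that r also carries the differences between groups. Marco was selected on its step between naïve and injected mice, and each of these genes had its lowest group mean in naïve mice. For Saa3 the means were 7.33 in naïve, 15.11 in saline, 14.93 in IMO-3100 and 14.78 in IMO-8400 mice. Likeness within the groups was not examined. For Msr1 the nearest genes were Mcoln2 (0.984), a lysosomal channel, Fcgr1 (0.977, at another of its probe-sets), Plek (0.973), Fgr (0.972), a myeloid Src kinase, and Ncf4 (0.972), a subunit of the phagocyte oxidase. For Cd163 they were Zbtb20 (0.926), Ppp1r9a (0.924), Zbtb46 (0.915), Clec10a (0.914) and Cd209b (0.914).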

How the data were processed

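Skin RNA of 20 mice was hybridized to mouse4302 arrays, 1 per mouse, and groups were taken from the sample labels. The authors deposited GCRMA expression values on the log2 scale, used here without further normalization, and no GCRMA version is given in the sources used here. GCRMA gives probe-sets without signal a lowest value, which compresses changes of dim genes. The array annotation gave 34958 probe-sets a single symbol, 932 several and 9211 none, of 45101. As in the study's methods, a probe-set was tested if 3 or more arrays exceeded 2 and its SD exceeded 0.1 (30960 probe-sets, 13909 genes) in limma 3.58.1 (R 4.3.3), with 4 group means, eBayes and Benjamini-Hochberg adjustment over all of them. The fit was tested on simulated data.

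The members and gene lists were chosen with earlier results of these data known. Named genes were all members, up to 4 called genes with the largest change in a list, list members standing beside a result as markers, and the 5 genes with the highest Pearson r with a member. Several related genes without a probe-set of their own symbol were not analysed here. Alternatives were no filter, a stricter filter (5 or more arrays exceeding 4), a floor at 4, quantile normalization, scaling of the arrays to the same 75th percentile, only the 2 groups compared, eBayes with trend and robust estimation, array weights, the probe-set with the largest SD, no FCH threshold, each mouse left out and, added after seeing the data, naïve mice 1 and 2 left out.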

Additional observations from a re-analysis of the deposited data

Results flagged for a closer look

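In 4 of 40 combinations of a gene and a group, 1 mouse stood apart from the other 4 by more than Dixon's 95% limit for 5 values, a limit that chance passes in about 1 of 20 groups. They were the highest saline mouse in Cd68 (13.79, against 13.62 to 13.65 in the others), the lowest naïve mouse in Olr1 (2.14, against 2.26) and the highest IMO-8400 mouse in Olr1 (2.44, against 2.26 to 2.29), both near background, and the lowest IMO-8400 mouse in Csf1r (13.70, against 14.04 to 14.14). The last was IMO-8400 mouse 4, which was also the lowest of its group in Msr1 (10.66), Cd68 (13.18), Stab1 (12.13) and Mrc1 (13.12).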

How the results depend on the processing

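No value of the 9 genes that was called turned its direction under any alternative. The calls after IL-23 were 1 higher in place of 2 with the stricter filter, with a floor at 4 and with only the 2 groups compared, where 1 was lower in place of 2. The number lower with IMO-3100 became 0 with no filter, the stricter filter, a floor at 4 and only the 2 groups, and 2 with array weights; with IMO-8400 it became 0 with the stricter filter and a floor at 4, and 2 with array weights, while with only the 2 groups the call passed from Olr1 to Msr1. Olr1 did not pass the stricter filter. With no FCH threshold 1 of 9 was higher with either drug. Against naïve mice, IMO-3100 had 0 higher with only the 2 groups and 1 with array weights, and 1 higher and 2 lower without naïve mice 1 and 2. IMO-8400 had 0 higher with no filter and with only the 2 groups, 2 lower with array weights, and 0 higher and 2 lower without naïve mice 1 and 2. Leaving out 1 mouse at a time gave 1 to 3 higher after IL-23, 0 to 1 lower with each drug against saline, 1 to 2 higher and 1 to 2 lower for IMO-3100 against naïve mice, and 0 to 3 higher and 1 to 2 lower for IMO-8400 against naïve mice. Over the array, no FCH threshold gave 13864 probe-sets after IL-23, 8284 and 8647 for IMO-3100 and IMO-8400 against saline, 1163 between the drugs, and 8588 and 5492 against naïve mice. Between the drugs 179 probe-sets were called, 114 with no filter, 333 with only the 2 groups, 498 with array weights and 66 to 209 with 1 mouse left out. IMO-8400 against naïve mice had 1084 with only the 2 groups, in place of 1867. Beyond what each setting removes, the cause was not tested. No paired analysis was possible because the labels give mice of different groups no shared number.

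Values near 2 carry no order, so that the size of the changes of Marco and Olr1 against naïve mice is uncertain. With 5 mice per group, the intervals of Msr1, Lyve1 and Stab1 between the drugs span over 2-fold.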

Other observations

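Lists of other cell types and of lipid handling were also measured. The shares over all tested probe-sets are those given with the other scavenger receptors. None is given for the fit without naïve mice 1 and 2. Of 8 neutrophil genes tested, 7 were higher after IL-23, and 5 and 6 were lower with IMO-3100 and IMO-8400 than with saline (limma, FDR under 0.05 and FCH over 2). The gene not called higher, Ltf, was near background in all groups. Ngp and Elane were also near background in all groups and did not pass the filter. The study counts S100a8 and S100a9, which are in this list, among genes that IL-17 regulates in keratinocytes. The list is therefore not specific to neutrophils. Of 10 genes of dendritic and Langerhans cells, 2 were higher and 3 lower after IL-23. Of 12 genes that handle lipids and lipoproteins, Ch25h, the enzyme that makes 25-hydroxycholesterol, was higher after IL-23 and Fabp4 and Vldlr were lower, and Ch25h was lower with both drugs than with saline. Without naïve mice 1 and 2 none of the 12 was called higher after IL-23, so that the call of Ch25h was lost, and 2 were lower. Of 8 keratinocyte genes 1 was lower after IL-23 (Lor), of 8 skeletal muscle genes 2 (Myh4 and Myoz1), and of 13 hair follicle genes 12. Without naïve mice 1 and 2 the hair follicle count was 4 of 13, with a median log2 difference of -2.55 in place of -5.21, and the skeletal muscle count was 3 of 8. Of 9 blood vascular endothelium genes none was called after IL-23 by limma (1 higher and 2 lower at an unadjusted p under 0.05), and none of 7 fibroblast genes (0 higher and 3 lower).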
